A study of Caenorhabditis elegans with 2 samples.

Results

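The 129 small nuclear RNA (snRNA) genes of Caenorhabditis elegans were examined for ChIP-seq regions of UNC-98::GFP. Members were all genes that the Ensembl annotation of the genome build WBcel235 (ce11) gives the kind snRNA on the 6 nuclear chromosomes, 129 of 46890 genes. A gene was counted in a list of regions when the summit of a region, its highest point as the authors' files give it, lay within 200 bp of the gene. UNC-98 is a zinc-finger protein of worm muscle attachment structures that is also found in muscle nuclei. The study precipitated it with an anti-GFP antibody from whole starved L1 larvae, aged 6 hours, in 2 biological replicates. Both came from strain OP85, in which the integrated transgene wgIs85 expresses unc-98::TY1 EGFP 3xFLAG, with unc-119(+) as rescue marker in an unc-119(ed3) background. There was therefore 1 group with 2 samples, with no second genotype, tissue or treatment, and no library from animals without the tag was analysed here. Whole animals were used, so the cells from which a region comes cannot be told. The values are the authors' own signal score of each region, on a scale that no label or header states. No read counts were available, so depth is unknown and no p-value was computed.

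snRNAs form, with Sm or LSm proteins, the particles that recognise splice sites and remove introns. In worms many messenger RNAs also receive a spliced leader by trans-splicing, in which sls-1 and sls-2 genes supply the SL1 and SL2 leader RNAs. Worm snRNA and leader RNA genes are short, mostly have no intron, occur in many copies, and are read from a promoter element upstream of the start that the factor SNAPc binds. In other species most of these genes are read by RNA polymerase II and those of U6 by RNA polymerase III with a TATA box. The annotation names classes only through some gene symbols. Those symbols give 12 sls-1 genes, 18 sls-2 genes and 10 smy genes, whose SmY RNAs are short Sm-bound RNAs linked to trans-splicing. The label spliceosomal thus covers trans-splicing RNAs too. The other genes were grouped by sequence, at 80% identity or more and with 4 or more genes to a group, and each group is called by a leading gene. The group of sup-6, a known U1 suppressor gene, held 13 genes of 156 to 170 bp, and 12 of them contain the letters ACTTACCT. The group of C05G6.4 held 19 genes of 185 to 187 bp, of which 18 contain GTAGTA. The group of C52E4.8 held 5 genes of 142 to 144 bp, all with AGCTTTGCG. The group of C53B4.9 held 12 genes of 117 to 126 bp, of which 11 contain GCCTTTTAC. The group of B0205.15 held 23 genes of 93 to 108 bp, of which 22 contain ACAGAG. These words are known from U1, U2, U4, U5 and U6 RNAs of other species, in that order, but the annotation assigns no such class. The remaining 17 genes were single, among them the 22-base mir-1831, which the annotation also lists as an snRNA and which lies inside sup-39.

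The sequence of sup-6 shows what a member looks like. It was read from the RefSeq copy of the build, 5′ to 3′ in the direction of transcription, with the word of the group in capitals. sup-6 lies at chrII:12944803-12944967 on the minus strand, in an intron of F58G1.7.
sup-6: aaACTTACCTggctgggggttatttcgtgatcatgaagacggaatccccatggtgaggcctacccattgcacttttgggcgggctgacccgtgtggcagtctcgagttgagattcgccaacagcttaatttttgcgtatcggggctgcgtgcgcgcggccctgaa

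Promoters are shown for the members on which the results turn, from 70 bases before to 10 bases into the gene. Capitals mark TGTC starting within 10 bases of position −50 and TATATAA starting within 10 bases of position −30, counted from the 5′ end. The first set holds the genes with a region in a thresholded list of the series, except sls-2.4, whose promoter is not printed.
sls-2.1: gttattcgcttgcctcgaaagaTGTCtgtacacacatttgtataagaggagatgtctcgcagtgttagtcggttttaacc
sls-2.2: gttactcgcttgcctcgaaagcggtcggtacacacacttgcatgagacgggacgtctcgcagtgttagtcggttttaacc
sls-2.8: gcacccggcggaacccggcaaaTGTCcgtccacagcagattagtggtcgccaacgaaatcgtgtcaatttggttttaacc
sls-2.14: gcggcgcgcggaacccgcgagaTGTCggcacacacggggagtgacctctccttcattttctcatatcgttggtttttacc
sup-6: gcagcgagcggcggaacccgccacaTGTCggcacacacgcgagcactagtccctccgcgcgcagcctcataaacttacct
C52E4.8: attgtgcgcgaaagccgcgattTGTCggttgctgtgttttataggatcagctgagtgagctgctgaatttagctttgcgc
F38E11.10: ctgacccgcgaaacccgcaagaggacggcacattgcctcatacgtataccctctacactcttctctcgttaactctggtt
W05B2.8: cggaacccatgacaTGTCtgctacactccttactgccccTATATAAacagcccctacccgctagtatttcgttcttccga

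The second set holds relatives with no region in any thresholded list. T11F9.15, F38E11.11 and K09B11.11 encode the same RNA sequence as C52E4.8, F38E11.10 and W05B2.8, in that order. sls-2.3 and sls-2.15 are the neighbours of sls-2.2 and sls-2.14 on the opposite strand, with 5′ ends 675 bp and 487 bp apart. sls-2.16 had no candidate in either replicate.
T11F9.15: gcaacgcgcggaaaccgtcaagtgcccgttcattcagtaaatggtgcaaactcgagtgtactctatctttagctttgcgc
F38E11.11: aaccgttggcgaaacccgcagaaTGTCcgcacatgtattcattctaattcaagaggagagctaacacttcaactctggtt
K09B11.11: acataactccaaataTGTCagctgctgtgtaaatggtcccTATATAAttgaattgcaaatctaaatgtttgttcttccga
sls-2.3: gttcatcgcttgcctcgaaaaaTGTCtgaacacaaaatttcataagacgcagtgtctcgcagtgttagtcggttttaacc
sls-2.15: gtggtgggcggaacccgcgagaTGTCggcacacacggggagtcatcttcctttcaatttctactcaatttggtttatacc
sls-2.16: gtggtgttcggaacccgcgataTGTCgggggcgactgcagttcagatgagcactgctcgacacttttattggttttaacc

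The deposited lists are of 2 kinds. Ranked lists hold every candidate region, 103403 in replicate 1 and 106737 in replicate 2, and give the −log10 of each one's irreproducible discovery rate (IDR), a measure of how well repeated rankings agree. Thresholded lists hold the regions past a −log10 IDR of 2 and have 577 regions for replicate 1 and 394 for replicate 2. For the series there is a conservative list of 728 regions, made from agreement between the replicates, and a second list of 790 regions.

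Of the 129 snRNA genes, 8 had a summit of the conservative list within 200 bp, or 6.20% with a 95% Wilson interval of 3.18 to 11.8%, which covers the count of genes only. The share among all nuclear genes was 1.46%. It was 6.70% of 612 tRNA genes and 6.65% of 346 small nucleolar RNA (snoRNA) genes, which lie inside the interval of the snRNA genes, and 2.30% of protein-coding genes. It was 0.383% of 261 miRNA genes and 0.026% of 15363 piRNA genes. The share of snRNA genes was therefore above that of all genes, of miRNA and of piRNA genes and near that of tRNA and snoRNA genes. In the second list 9 snRNA genes had a summit (6.98%), against 1.59% of all nuclear genes. In the thresholded list of replicate 1 there were 6 (4.65%), against 1.23% of all nuclear genes. In that of replicate 2 there were also 6 (4.65%), against 0.74% of all, 2.29% of tRNA genes and 3.18% of snoRNA genes. In each of these lists every such snRNA gene had its summit within 200 bp of its 5′ end. The conservative list had 9 regions near an snRNA gene, 1.24% of its 728 regions.

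**Figure D1:**
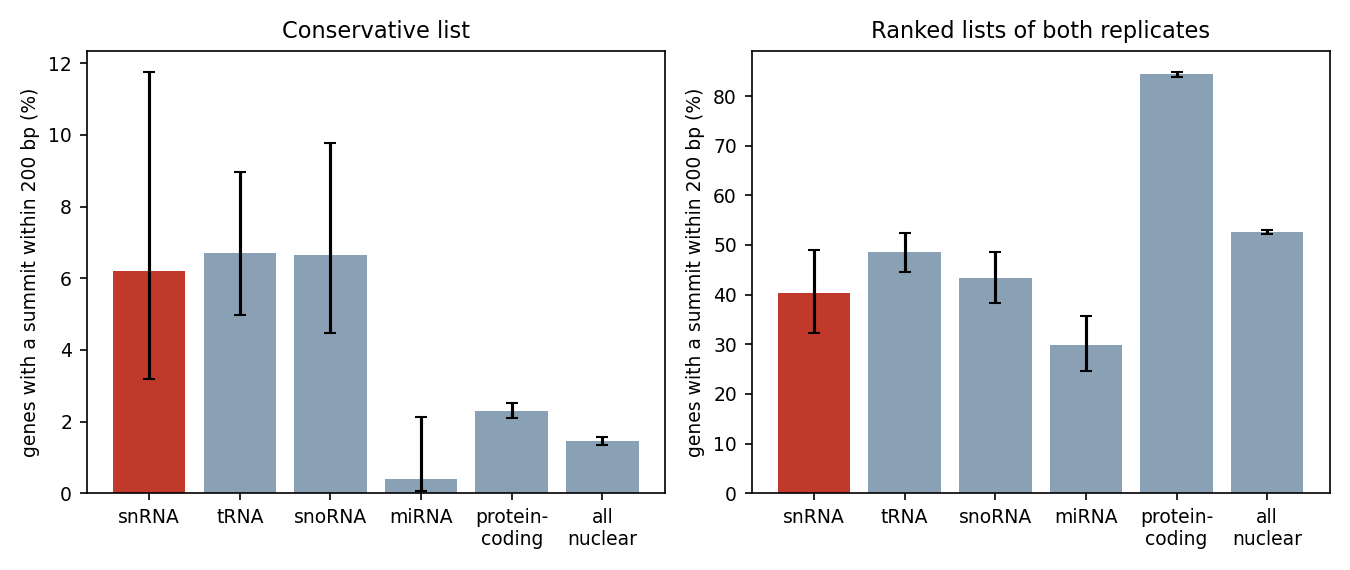
Share of genes, in percent, with a summit within 200 bp in the conservative list (left) and in the ranked lists of both replicates (right), for snRNA genes (red) and for other kinds and all nuclear genes (grey-blue). Bars are shares and error bars 95% Wilson intervals over the number of genes. The snRNA bar on the left stands at 6.20%, close to tRNA genes at 6.70% and snoRNA genes at 6.65%, and on the right at 40.3%, below all genes at 52.7%.

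The candidates of the ranked lists were less selective. In replicate 1, 64 of the 129 snRNA genes (49.6%) had a candidate summit within 200 bp, against 64.9% of all nuclear genes. In replicate 2, 78 (60.5%) had one, against 66.6% of all. Both replicates had one at 52 snRNA genes (40.3%), against 52.7% of all. Another 39 (30.2%), among them all 12 sls-1 genes, had none in either. The share of all nuclear genes with none in either was not computed. Longer genes gather more summits, and a median snRNA gene has 109 bp against 2027 bp for a protein-coding gene. Counting only summits within 200 bp of the 5′ end gave 37.2% of snRNA genes in both replicates, against 20.8% of all nuclear genes, 43.6% of tRNA genes and 33.5% of snoRNA genes. The members' median highest candidate signal was 15.4 in replicate 1 and 16.1 in replicate 2, and the median of all candidates was 12.7 in both lists. These are unlike measures, since the first takes the highest candidate near each gene and the second takes every candidate singly. A candidate in the top 1% of signal in both replicates was found at 6 snRNA genes (4.65%), against 1.07% of all nuclear genes, 4.41% of tRNA genes, 4.62% of snoRNA genes, 0.383% of miRNA genes and 0.0195% of piRNA genes. Presence in both ranked lists thus stood below that of all genes over the whole gene and above it near the 5′ end, and the share with high signal was above that of all genes.

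The sls-2 genes, which encode the SL2 leader used on downstream genes of worm operons, held 4 of the 8 genes in the conservative list. That is 22.2% of the 18 sls-2 genes, against 4 of the 111 other members (3.60%), and 5 of the 9 genes in the second list were sls-2 genes. The gene with the highest conservative signal was sls-2.1, with a region at chrII:5844665-5844980 and a signal of 267.5, rank 49 of 728. Its candidates had signals of 124.1 in replicate 1 and 134.9 in replicate 2, with summits 39 bp and 43 bp upstream of the 5′ end. The next sls-2 gene, sls-2.4 on chromosome I, had a region at chrI:4172002-4172317 with a signal of 196.6, rank 127. The candidates near it had signals of 135.2 in replicate 1 and 68.2 in replicate 2, with summits 47 bp and 46 bp upstream. Both genes had their summits within a few bases of each other in the 2 replicates, just before the start of the leader RNA gene.

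For sls-2.2 the conservative region lay at chrII:5543466-5543781 with a signal of 176.8, rank 156. Its candidates had signals of 93.1 in replicate 1 and 82.0 in replicate 2. Unlike those of the first pair, its summits fell on both sides of the 5′ end, 29 bp downstream in replicate 1 and 22 bp upstream in replicate 2. sls-2.3, transcribed towards it from the other side, had signals of 39.4 in replicate 1 and 17.0 in replicate 2 and a −log10 IDR of 0.309 and 0.0924 in the ranked lists behind the conservative and the second list, both short of 2. The promoters of sls-2.1, sls-2.2 and sls-2.3 printed above share most of their letters, and TGTC stands at the marked place in sls-2.1 and sls-2.3 but not in sls-2.2.

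The weaker sls-2 regions depended on which list was read. sls-2.14, in an intron of W09D6.5 on the opposite strand, had a conservative signal of 71.8, rank 624 of 728. Its candidates had signals of 41.6 in replicate 1 and 32.9 in replicate 2, and neither passed the threshold within its replicate. Its neighbour sls-2.15 had signals of 22.2 in replicate 1 and 31.7 in replicate 2 and a −log10 IDR of 0.895 and 0.121 in the ranked lists behind the conservative and the second list. The printed promoters of the pair have nearly the same letters from the first base to beyond TGTC and differ more towards the gene. sls-2.8 stood only in the second list, with a signal of 92.3, rank 466 of 790. Its signals were 68.7 in replicate 1, where it passed the threshold, and 25.3 in replicate 2, where it did not, and both of these summits lay 35 bp upstream. The summit of its region in the second list lay 6 bp downstream of the 5′ end, inside the gene. sls-2.9 had 31.8 in each replicate. Its −log10 IDR was 1.87 in the ranked list behind the conservative list, just short of 2, and 0.708 in the one behind the second list.

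Over all sls-2 genes, 13 had a candidate in replicate 1, 14 in replicate 2 and 12 in both. The median highest signal was 31.8 in replicate 1, at percentile 98.2 of all candidates as a median over genes, and 21.2 in replicate 2, at percentile 83.1. Among members other than sls-2 genes the medians were 13.7 in replicate 1 and 15.9 in replicate 2. sls-2.7, sls-2.16 and sls-2.17 had no candidate in either replicate, although 97.9%, 100% and 86.1% of the 36-letter words in and around them occur once in the genome. In the ranked lists of the series, sls-2.7 had a candidate of 27.4 in both, and sls-2.17 one of 5.48 in that behind the second list. The family thus ranged from genes among the strongest regions to genes with no candidate in either replicate.

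**Figure D2:**
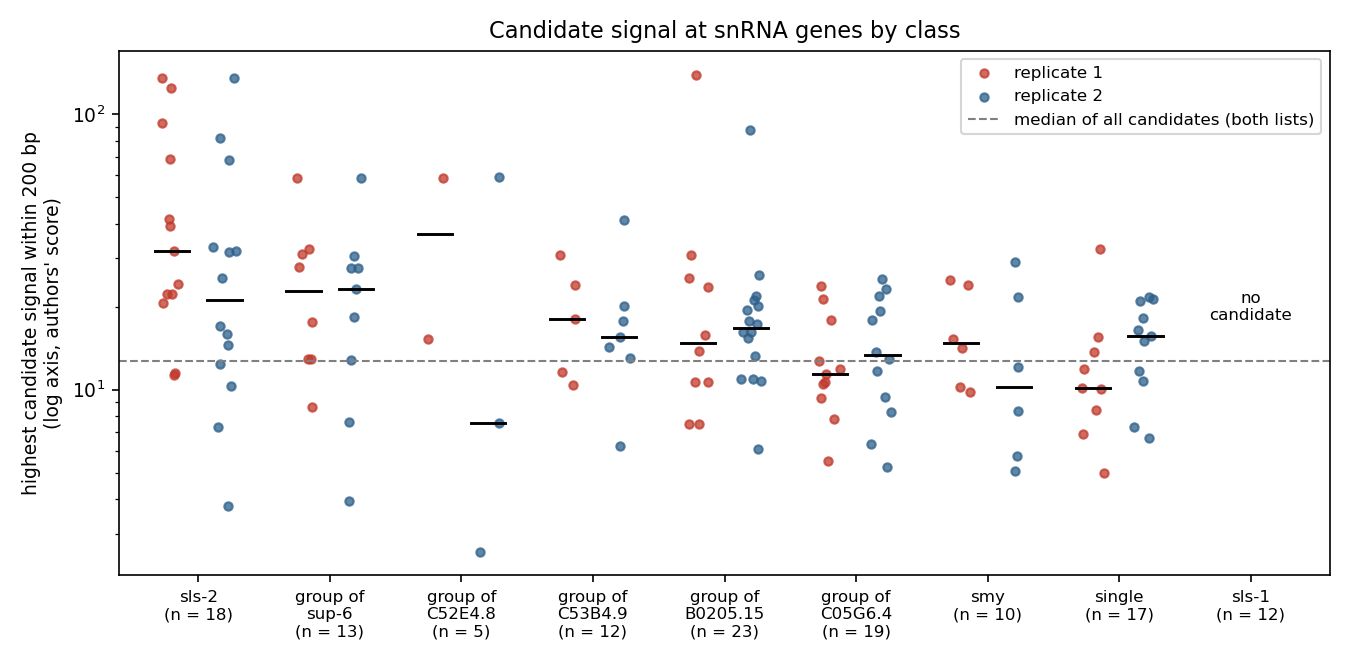
Highest candidate signal within 200 bp of each snRNA gene in the ranked list of replicate 1 (red) and replicate 2 (blue), by class, on a log axis. Each point is a gene, black lines are medians over the genes with a candidate, and n is the number of genes in the class. The dashed line is the median of all candidates taken singly (12.7), not of the highest candidate per gene. The sls-2 genes have medians of 31.8 and 21.2, and single genes stand out in the groups of sup-6, C52E4.8, C53B4.9 and B0205.15, while sls-1 genes have no candidate.

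In each of 4 sequence groups a single gene had a conservative region. In the group of B0205.15 that gene was W05B2.8, in an intron of dhc-4, with a region at chrIII:10989562-10989651, a signal of 233.3 and rank 89. Its candidates had signals of 139.3 in replicate 1 and 87.7 in replicate 2, with summits 38 bp and 35 bp upstream of the 5′ end. The 13 other genes with the same RNA sequence had no region in any thresholded list. Of these, 4 had a candidate in replicate 1, with signals of 7.50 to 30.9, and 10 in replicate 2, with signals of 6.08 to 26.0. The signals of W05B2.8 lay above all of these in both replicates. One copy, C28A5.7, had a candidate of 65.2 in the ranked lists behind the conservative and the second list. Its −log10 IDR was 1.60 in the former and 0.0676 in the latter, both short of 2. The share of 36-letter words that occur once was 84.6% at W05B2.8 and 46.9 to 82.0% at the copies, and the part of this gap in the difference was not tested. K09B11.11 and Y17G9A.90 had no candidate in either replicate. Their shares of words that occur once were 46.9%, the lowest of the copies, and 81.8%. The printed promoters of W05B2.8 and K09B11.11 both hold TGTC and TATATAA at the marked places and differ elsewhere.

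sup-6 was the gene with a region in its group, at chrII:12944844-12945159 with a signal of 134.6, rank 256. Candidate signals were 58.9 in replicate 1 and 58.7 in replicate 2, with summits 55 bp and 47 bp upstream, and both passed the threshold. Of the remaining genes of the group, T08G5.11 had signals of 31.0 and 30.7 in replicates 1 and 2. Its −log10 IDR was 1.77 in the ranked list behind the conservative list and 0.325 in the one behind the second list. H27M09.6 had 28.0 and 18.3. sup-39, like sup-6 known from suppressor mutations in a U1 gene, had 32.4 in replicate 1 and 23.3 in replicate 2, with summits 136 bp and 297 bp downstream of its 5′ end. The candidate of replicate 1 is also that of mir-1831. C27H5.11 and F40G12.13 had none in either replicate. In this group sup-6 was the one gene with the highest candidate upstream of its 5′ end in both replicates.

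C52E4.8 had a region at chrV:11979909-11980224 with a signal of 136.4, rank 250. Candidate signals were 58.5 in replicate 1 and 59.3 in replicate 2, with summits 53 bp and 42 bp upstream. Replicate 1 alone did not pass the threshold, at a −log10 IDR of 1.92, and replicate 2 did, at 2.46. The same summit lies 344 bp upstream of the 5′ end of snr-4, an Sm protein gene, so the region cannot be given to one of the 2 genes. T11F9.15, with the same RNA sequence, had no candidate in either replicate, and 78.0% of its 36-letter words occur once, against 77.4% at C52E4.8. T11F9.16 had a candidate only in replicate 1, with a signal of 15.2.

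F38E11.10, of the group of C53B4.9, had 2 conservative regions. The stronger had its summit 34 bp upstream, with a signal of 72.2 and rank 621, and the weaker 172 bp downstream, with 33.6 and rank 705. Its highest candidates had signals of 30.9 in replicate 1 and 41.4 in replicate 2, and neither passed the threshold within its replicate. F38E11.11, with the same RNA sequence, had a candidate of 18.0 in replicate 1 and none in replicate 2, with 80.9% of its words unique against 81.1% at F38E11.10. ZK897.3 had 11.6 in replicate 1 and 17.8 in replicate 2, F32B5.9 had 10.4 and 13.0, and F07C6.5 had 23.9 and 6.26. F42C5.12 and C53D6.16 had none. In 3 sets of identical RNA genes, then, 1 copy had a region in a thresholded list and the others had none. The sets were picked by that region, so stronger candidates at that copy follow largely from the choice.

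No region of a thresholded list lay near the group of C05G6.4, where 8 of 19 genes had a candidate in both replicates. Its highest signal was 23.8 in replicate 1, at R05D7.6, and 25.2 in replicate 2, at Y57G11C.35. Among the genes with both, F11A5.14 had 12.7 in replicate 1 and 12.9 in replicate 2, and T14B4.10 had 11.9 and 13.7. The smy genes also had none, with candidates in both replicates at 4 of 10. smy-12 had the highest pair, 25.0 in replicate 1 and 21.6 in replicate 2, with summits 40 bp and 42 bp into the gene. The 17 single genes had none either. Among them B0213.24 had 15.5 in replicate 1 and 21.3 in replicate 2, and ZK1251.14 had 13.7 and 21.7. At the sls-1 genes, which supply the SL1 leader and stand in the 5S ribosomal RNA repeats of chromosome V, no candidate was listed in either replicate. The median share of 36-letter words that occur once is 0% there, with a highest value of 22.5% at sls-1.12. How reads with several matching places were treated is not stated, so nothing can be read from the empty sls-1 genes.

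Sequence copies limit other members as well. In all, 44 members have an identical copy and the 129 genes have 94 distinct sequences. Of the 22 members with under 50% unique words, 4 had a candidate in either replicate and 2 in both. Of the 107 at 50% or more, 86 had a candidate in either and 50 in both. The 8 genes in the conservative list had 77.4 to 100% unique words with a median of 87.9%, and the other members a median of 80.7%. Without the sls-1 genes, 52 of 117 members (44.4%) had a candidate in both replicates. Read length is not given either, so the 36-letter words describe the genome and not the reads.

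In the conservative list the summits of most members stood just upstream of the gene. Of the 8 snRNA genes in the conservative list, 7 (87.5%) had the strongest summit between 60 and 30 bp upstream of the 5′ end, a window chosen after these values were seen. The exception was sls-2.2, at 26 bp downstream, and in the second list sls-2.8 was another, at 6 bp downstream. Within single replicates the summits varied more. The highest candidate of F38E11.10 lay 1 bp downstream in replicate 1 and 14 bp upstream in replicate 2. That of sls-2.14 lay 11 bp upstream in replicate 1 and 43 bp upstream in replicate 2, so only the last of these was in the window. The same window held the summit at 8.93% of all nuclear genes in the list, 14.6% of the 41 tRNA genes, 34.8% of the 23 snoRNA genes and 6.96% of protein-coding genes. The median offset was −42.5 bp for snRNA genes, against −5 bp for tRNA genes, −54 bp for snoRNA genes and 66.5 bp for protein-coding genes, where negative values lie upstream. Over all candidates of the ranked lists this was less so. In replicate 1, 13 of 64 snRNA genes (20.3%) had the strongest candidate in the window. This compares with 3.22% of all nuclear genes with a candidate, 9.36% of tRNA genes and 11.8% of snoRNA genes. In replicate 2 it was 12 of 78 (15.4%), against 3.36%, 8.57% and 10.3%, in that order. Without the 9 genes of the second list, 7 of 55 (12.7%) remained in replicate 1 and 5 of 69 (7.25%) in replicate 2. These shares were near those of tRNA and snoRNA genes, from which no genes had been taken out. The members' median candidate position was 4 bp in replicate 1 and −12.5 bp in replicate 2.

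**Figure D3:**
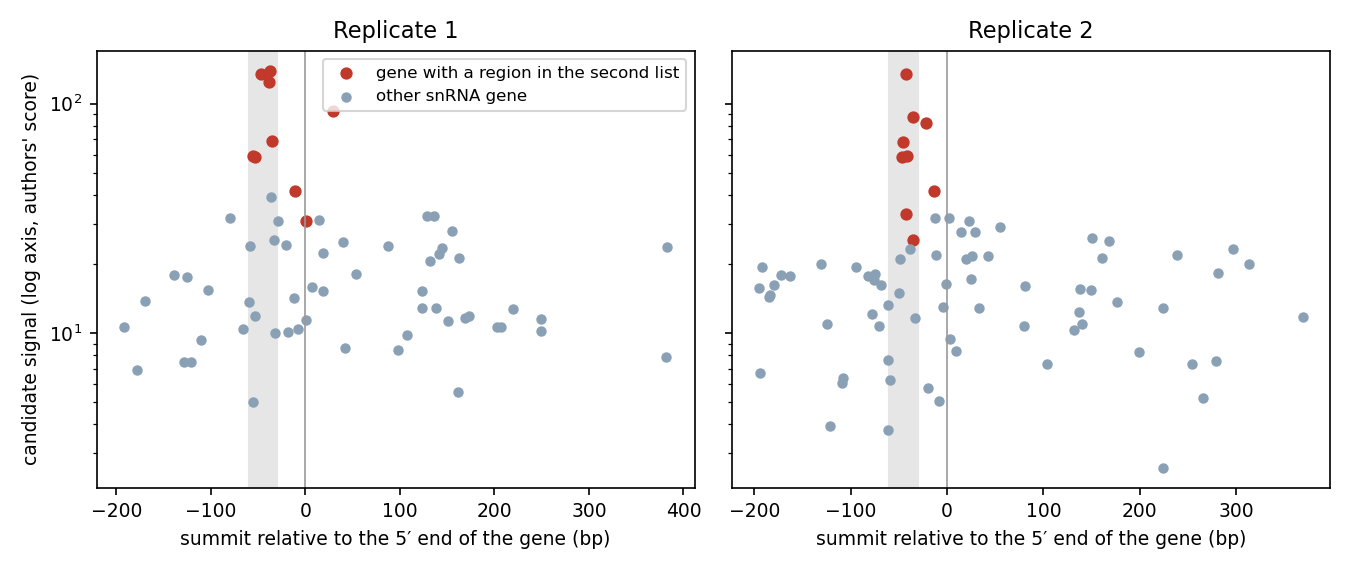
Position of the highest candidate summit relative to the 5′ end of each snRNA gene (x axis, bp, negative upstream) against its signal (y axis, log) in replicate 1 (left) and replicate 2 (right). Red points are the 9 genes with a region in the second list, grey-blue points the other genes with a candidate, and the shaded band runs from 60 to 30 bp upstream. Most red points stand in the band, with sls-2.2 the strongest outside it in each replicate, and the others are spread over the whole search window.

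The replicates agreed more at the genes in thresholded lists than at the others, but those genes had been chosen partly for such agreement. Over the 52 genes with a candidate in both, Spearman's correlation of the signals was 0.544, a description of genes that share their libraries and partly their regions. Without the genes in thresholded lists it was 0.223 over 43 genes. The genes taken out had passed an IDR threshold, so a lower value without them follows partly from that choice. The summits of the replicates lay within 50 bp of each other at 20 of the 52 (38.5%), against 21.8% of all nuclear genes with both, 42.8% of tRNA genes and 51.3% of snoRNA genes. Of the 9 genes in the second list, 8 had them within 50 bp, and sls-2.2 had them 51 bp apart. Some neighbouring members share a candidate, such as T20D3.12 and T20D3.13, so the 64 genes of replicate 1 rest on 60 regions and the 78 of replicate 2 on 75. All 9 genes of the second list had a candidate in both replicates.

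**Figure D4:**
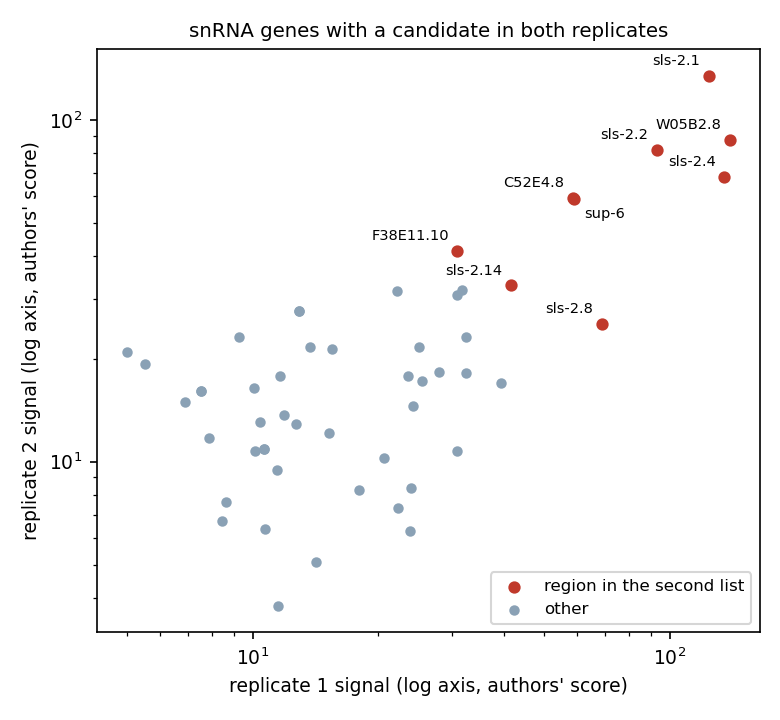
Highest candidate signal of the 52 snRNA genes with a candidate in both replicates, replicate 1 (x axis, log) against replicate 2 (y axis, log). Red points, named, are the 9 genes with a region in the second list, and grey-blue points the other 43. The red points, which had passed an IDR threshold, lie above 30 in replicate 1 and above 25 in replicate 2 and rise together. The others show little relation.

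Some promoter letters were frequent among the members. Words of 6 to 9 letters were counted from 250 bp before the 5′ end to the end itself, within 10 bases of the place where each was most frequent. The words given and their places are those that led by count in these same members. A share above that of all genes was therefore partly set by this choice. Members with identical copies were each counted. AACCCG, most often starting at position −62, stood there in 43 members (33.3%), against 0.343% of all nuclear genes. The overlapping 9-letter word GCGGAACCC, at −65, stood in 30 members (23.3%), against 0.111%. TGTCGG, at −47, stood in 39 members (30.2%), against 0.437%, and was most frequent in the group of C05G6.4, with 14 of its 19 genes, and in the sls-2 genes, with 10 of 18. TGTC near −50, chosen after reading the promoters, stood in 90 members (69.8%), against 6.27% of all nuclear genes. TATATAA near −30, chosen in the same way, stood in 16 members, 15 of them in the group of B0205.15, against 0.966% of all genes. On either strand anywhere from 250 bp before to 50 bp after the 5′ end, TGTC stood in 95.3% of members and 81.0% of all genes, and TATATAA in 17.8% and 8.08%. Whether any of these words is the SNAPc element was not tested.

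These letters did not single out the genes with a region. TGTC stood at its place in 7 of the 9 genes of the second list, the exceptions being sls-2.2 and F38E11.10, and in 69.8% of all members. A candidate in both replicates was found at 38 of the 90 members with TGTC (42.2%), against 14 of the 39 without it (35.9%). The median signals were 18.0 in replicate 1 and 17.5 in replicate 2 with TGTC, against 12.8 and 15.3 without it, and the 12 sls-1 genes, which have no candidate, include 10 with TGTC. The window from 60 to 30 bp upstream overlaps the stretch in which TGTC was counted, but both were chosen after values or promoters were seen. Of the 90 members with TGTC, 11 in replicate 1 and 10 in replicate 2 had the strongest candidate in that window. Of the 39 without it, 2 did in each replicate. The 90 and the 39 include members without a candidate, and the genes of the second list were not taken out. Whether the summits and TGTC are linked was not tested. GC content from 250 bp before to 50 bp after the 5′ end had a median of 44.3% over the 9 genes, with a range of 37 to 52.7%, against 39.3% over the other 120.

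Many members lie within or beside other genes, which the distance rule does not separate. Of the 129, 63 lie inside a protein-coding gene, 55 of these without touching an exon. Of the 8 genes in the conservative list, 4 had the summit inside a promoter window of a protein-coding gene, from 1000 bp upstream to 500 bp downstream of a transcript's 5′ end. These were sls-2.1 with H41C03.3, sls-2.4 with egg-5, F38E11.10 with F38E11.9 and C52E4.8 with snr-4. The other 4, sls-2.2, sls-2.14, sup-6 and W05B2.8, had their summits outside every such window, at 1240 to 3256 bp from the nearest protein-coding 5′ end. At 5 of the 8 another non-coding gene was annotated within 200 bp of the summit, such as F58G1.11 at sup-6, and the region cannot be told apart between them.

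Regions were also sought at protein genes that serve snRNAs. Of 63 listed genes 58 matched the annotation, and 3 (5.17%) had a conservative summit in the promoter window, against 3.16% of all 19973 protein-coding genes. These were snr-1, with a conservative signal of 417.4 and candidate signals of 190.1 in replicate 1 and 222.3 in replicate 2, ints-4, and snr-4. snr-1 encodes an Sm protein, the ring of proteins that most snRNAs carry, and ints-4 a subunit of Integrator, the complex that cuts the 3′ ends of nascent snRNAs. ints-4 had 290.7, with 184.7 in replicate 1 and 101.8 in replicate 2, at a −log10 IDR of 5 in replicate 1 and 1.57 in replicate 2. snr-4 shares its region with C52E4.8, as given above. The Sm genes had 2 of 7, and snr-2 was added in the second list with a signal of 66.8. No conservative region lay at the 9 genes of SNAPc subunits, TATA-binding protein and brf-1. There was none at the 8 LSm genes or at the 5 genes of cap binding, export and assembly. The 16 genes of other snRNP proteins and the 2 genes of U6 modification and 3′ end formation had none either. These subgroups are too small for an empty one to stand apart from the 3.16% of all protein-coding genes.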

How the data were processed

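ChIP-seq regions of UNC-98::GFP came from 2 biological replicates of 1 group. Per the labels, chromatin was sonicated to 200 to 800 bp. The deposited lists give a signal per region and, in the ranked lists, the IDR as −log10, with 5 as its highest value. The build is ce11 per the labels. Aligner, peak caller and the treatment of reads with several places are not stated in any label or header. The thresholded lists also rest on a further file whose content is not stated: 66 and 75 regions past the threshold in the series ranked lists, and 47 and 49 in those of replicates 1 and 2, stand in no thresholded list, none of them near a member. The ranked lists hold 16 columns of per-sample values that were not used.

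Summits were set against Ensembl release 115 genes with Python 3.11.15, pandas 2.3.3 and numpy 2.4.6, and the search was tested on simulated data. Names are RefSeq symbols, since the Ensembl names repeat (94 for 129 genes); all 129 coordinates were equal in both. Members and lists were chosen with earlier results of these data known. Named are all members in a thresholded list and pathway genes with a region. Per class, members were also named from the 4 with the highest lower replicate signal, not always all of them, and up to 2 without candidates. Further members that a comparison concerns were chosen after values were seen. Of the listed pathway genes, snpc-1.5, snpc-3.3, ints-10, ints-12 and sap-1 were unmatched. Alternatives covered lists, replicates, distances and filters.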

Additional observations from a re-analysis of the deposited data

How the results depend on the processing

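Of 39 alternatives to the counts and medians above, 30 stayed within 1.5 times the count or within the spread between replicates, and 9 did not. The 8 snRNA genes of the conservative list became 4 at an IDR of 0.001 (sls-2.1, sls-2.2, sls-2.4 and W05B2.8) and 4 when summits in protein-coding promoter windows were left out. With either replicate alone the count was 6. The 52 genes with a candidate in both replicates became 83 in both series ranked lists, 17 among candidates from the 75th percentile of signal upwards, and 29 outside protein-coding promoter windows, with 64 to 78 when a replicate was left out. The median signal became 13.98 in replicate 1 and 15.5 in replicate 2 outside those windows, and 17.0 in replicate 2 with summits up to 500 bp away. The median candidate position, −4.25 bp as a mean over replicates, became 10.75 bp with summits up to 100 bp away and took both signs between replicates, so no side of the 5′ end can be given for the candidates as a whole. The 3 pathway genes varied between 2 and 4. The cause of these shifts was not tested beyond what fewer or more regions bring. No paired analysis was possible because there is 1 group. Depth is unknown, so no limit from counting reads can be given.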
